A study of Homo sapiens with 18 samples.

Results

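The 9 genes described here make or use glutathione, reduce thioredoxin and oxidized peroxiredoxin, detoxify quinones and haem, or store iron: GCLC, GCLM, GPX4, TXNRD1, SRXN1, NQO1, HMOX1, FTH1 and FTL. They were chosen by gene symbol, as a pathway group rather than by their response, although earlier results of these data were known. All 9 were found among the 22136 genes counted at 2 days and the 21276 genes counted at 7 days. C4-2B, a human prostate cancer cell line with WT as its genotype label, was cultured in RPMI with fetal bovine serum and antibiotics. The label does not mean an unmutated genome. The study cites reports of some mutations in BRCA2 and other DNA repair genes in C4-2B, without a functional loss of homologous recombination. Cells received DMSO vehicle or 0.1 µM VIC-1911, an inhibitor of the mitotic kinase Aurora A, for 2 days, or DMSO vehicle, 0.1 µM VIC-1911, 1 µM olaparib, a PARP inhibitor, or both drugs at these doses for 7 days. Each of the 6 groups had 3 polyA RNA-Seq libraries (18 in all), and the single cell line limits what is described to C4-2B. Where only the spread between these libraries enters a p-value, that spread may be partly technical, since the labels do not say whether the libraries of a group came from separate cultures.

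NRF2 (gene NFE2L2) is a transcription factor that is held back by KEAP1 and, when released by oxidants or electrophiles, turns on genes through antioxidant response elements in their control regions. Classic targets include both subunits of glutamate-cysteine ligase (GCLC and GCLM), the first enzyme of glutathione synthesis, as well as TXNRD1, SRXN1, NQO1, HMOX1 and the ferritin chains, while BACH1 competes for the same elements and is best known for repressing HMOX1. Ferritin is a shell of heavy (FTH1) and light (FTL) chains around stored iron, the heavy chain oxidizes the iron, and translation of both mRNAs is held back in iron-poor cells by proteins that bind an iron-responsive element in the 5′ part of the message. GPX4 uses glutathione to reduce lipid peroxides and is the central brake on ferroptosis, an iron-dependent form of cell death.

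The short sequences below show which of the genes carry the core letters of these elements near their start, in windows from 250 bases before to 50 bases after each RefSeq transcription start (GRCh38.p14). The windows held 7 of the 9 genes, in 10 windows, and HMOX1 and FTH1 were not among them. The search used TGACNNNGC and TGAGNNNGC on both strands for the antioxidant response element core, and, for the loop of an iron-responsive element, a C, 5 bases of any kind, CAGTG and 1 further base on the transcribed strand within the first 50 transcribed bases. Either core form was found for GCLM, TXNRD1 and NQO1, 3 of the 7 genes, against 29.1% of 35116 windows of the same length. The TGAC form alone was found for GCLM and TXNRD1, against 13.3% of windows, and the loop letters were found for FTL alone among the 7, against 1.67% of windows. These background shares are per window, whereas a gene with more than 1 window, such as TXNRD1, has more chances of a match, so the 2 measures are not alike. Of the 2 core matches of GCLM and the 4 of TXNRD1, those printed are the TGAC matches farther from a start, as the form found in fewer windows. Chromosome positions given here are those of the 30 bases printed around each match. The GCLM match lies on the plus strand within chr1:93909445-93909474, from base -34 to base -26 relative to the start, and a TGAG match covers base -8 to base 1. The TXNRD1 matches shown lie on the plus strand within chr12:104215670-104215699 before its first listed start and on the minus strand within chr12:104286920-104286949 before another. The site of NQO1 lies on the plus strand within chr16:69726660-69726689. The FTL loop lies on the plus strand within chr19:48965329-48965358, at bases 33 to 44 of the transcript. Not printed for TXNRD1 are a TGAC match from base -8 to base 1 of the first start and a TGAG match from base -198 to base -190 of the other. Sequences run 5′ to 3′ in the orientation of the motif, and capitals mark the letters matched.
GCLM: ctggaagacaaTGACTAAGCagaaatcgta
TXNRD1, first start: acacgggctaTGACTTCGCtgttgtcaccg
TXNRD1, other start: cagagtcagaaTGACAAAGCagaaatccac
NQO1: gcggaggatgcTGAGGCTGCagctccagga
FTL: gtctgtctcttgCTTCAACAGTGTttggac
A match describes letters in a window only, and binding was not measured here.

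Libraries held 3245273 to 7184420 gene counts at 2 days and 4967931 to 19684208 at 7 days, and the 9 genes took 0.308% to 0.346% of the counts at 2 days and 0.228% to 0.311% at 7 days. Every one of the 9 prostate luminal markers examined was expressed, KLK3 being highest at 1244 FPKM or more, where FPKM counts sequenced fragments scaled to transcript length and library size. The summed FPKM of these 9 markers was 4364 to 4433 in the 7-day vehicle libraries and 2762 to 3184 in the drug-treated libraries of 7 days. At 2 days this sum was 2426 to 2607 in vehicle and 2290 to 2432 with VIC-1911. The 7-day vehicle thus stood highest, though the 2 time points were normalized separately and this difference was not tested. Markers of stroma, blood and endothelium summed to at most 2.63, 10.4 and 0.754 FPKM, with DCN, CD3E, HBB and CDH5 listed at 0 in every library, and CD68 and COL1A1 were the only ones above 1 FPKM. The blood list, nearly all CD68, summed to 6.11 to 6.96 FPKM in 7-day vehicle libraries, 7.53 to 7.98 with VIC-1911, 8.36 to 10.3 with olaparib and 9.38 to 10.4 with both drugs, and the part of these shifts in the results was not tested. The 7-day vehicle and VIC-1911 libraries carry consecutive library numbers, and the olaparib and combination libraries a later consecutive run, so a drug and its run of numbers cannot be told apart when olaparib or the combination is compared with vehicle, or the combination with VIC-1911. The comparison of VIC-1911 with vehicle, and that of the combination with olaparib, each lie within one run. All 3 comparisons with vehicle at 7 days share the same 3 vehicle libraries. Differences were tested on counts with edgeR's two-sided quasi-likelihood test, with Benjamini-Hochberg adjustment over all genes tested, and a gene is called higher or lower at an adjusted p under 0.05. All 9 genes passed the filter on low counts, which left 12241 genes at 2 days and 14409 at 7 days. In bulk RNA, fewer cells of a kind and less RNA per cell cannot be told apart.

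**Figure D1:**
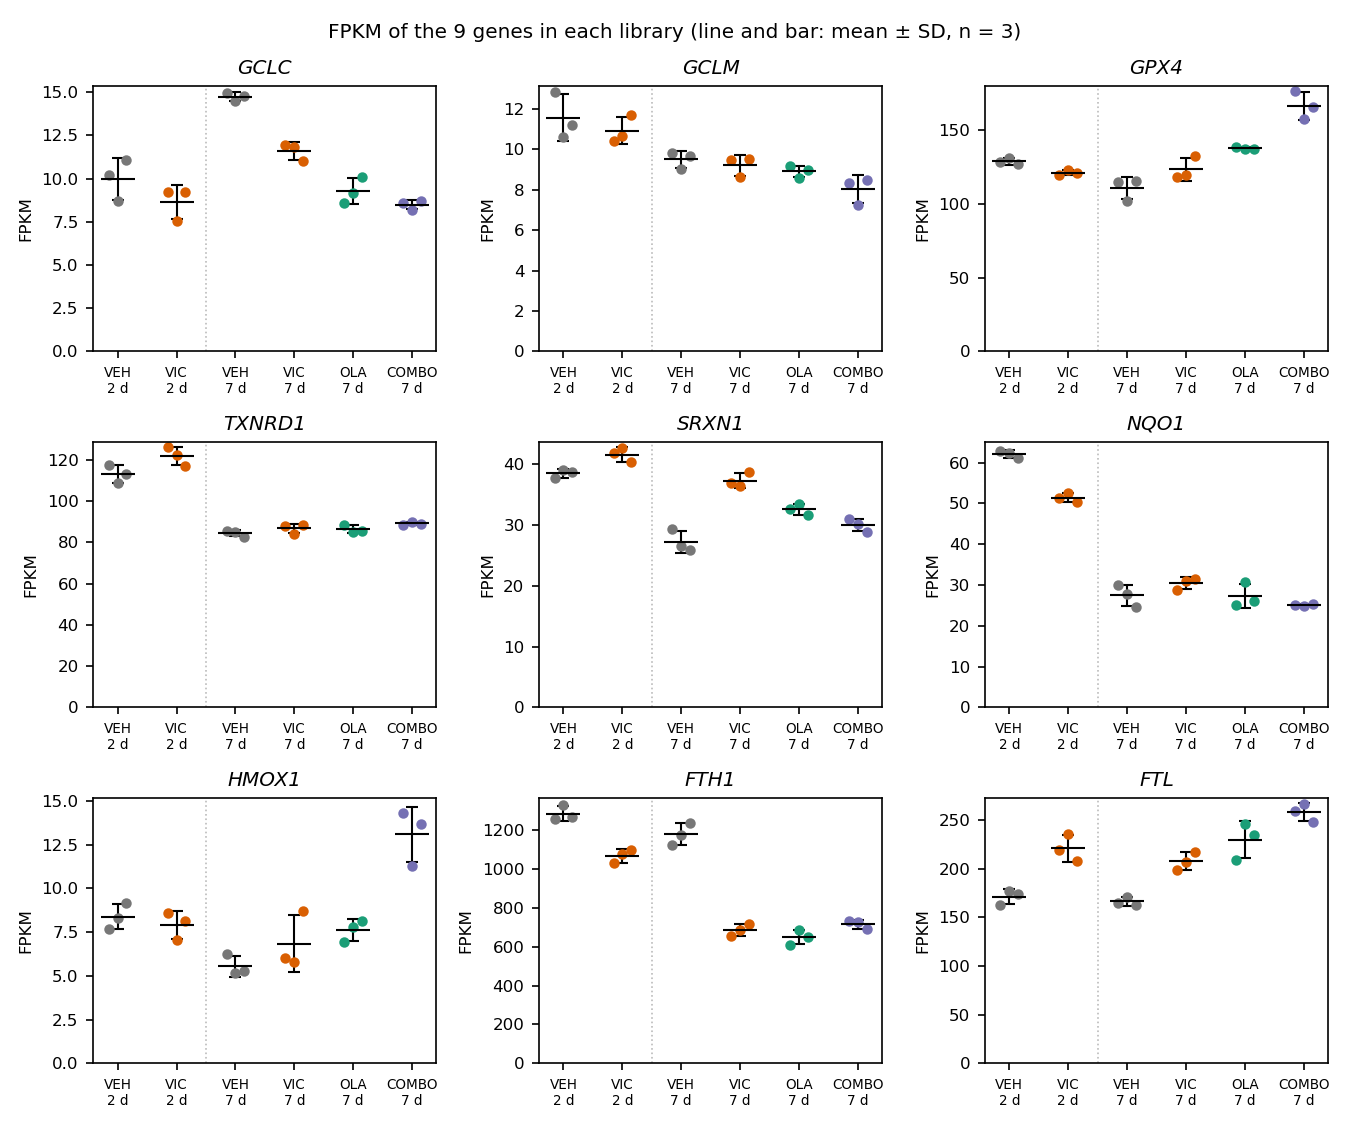
FPKM (vertical axes, starting at 0) of the 9 genes in each of the 18 libraries, with VEH for DMSO vehicle, VIC for VIC-1911, OLA for olaparib and COMBO for both drugs. Points are libraries and the lines with bars are the mean ± SD (n = 3); the dotted line separates the 2-day and 7-day tables, which were normalized separately. FTH1 was the most abundant of the 9 genes in every group, and HMOX1 reached 11.3 to 14.3 FPKM in the combination libraries.

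Levels of the 9 genes spanned a wide range on the per-length FPKM scale. In 7-day vehicle cells the order from highest to lowest mean FPKM was FTH1 (1180 ± 55.9, SD, n = 3), FTL (166 ± 4.34), GPX4 (111 ± 7.60), TXNRD1 (84.5 ± 1.45), NQO1 (27.4 ± 2.66), SRXN1 (27.2 ± 1.84), GCLC (14.7 ± 0.242), GCLM (9.51 ± 0.404) and HMOX1 (5.56 ± 0.599). NQO1 and SRXN1 differed by less than their spread, and every other pair of neighbours did not overlap between libraries. In combination-treated cells HMOX1 (13.1 ± 1.59 FPKM) stood above GCLC (8.48 ± 0.263) and GCLM (8.03 ± 0.701), without overlap between libraries, and the last 2 overlapped.

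With both drugs for 7 days, 4 of the 9 genes were higher than in vehicle (HMOX1, FTL, GPX4 and SRXN1), where 28.6% of all genes tested were higher, and 4 were lower (GCLC, FTH1, GCLM and NQO1), where 28% of all genes tested were lower. TXNRD1 did not pass. One of the 9, HMOX1, also went past a 2-fold limit, which 8.54% of all genes did in either direction. The median absolute log2 fold change of the 9 genes was 0.59, against 0.28 over all genes tested. With olaparib alone, 4 genes were higher (HMOX1, FTL, GPX4 and SRXN1; background 28.1%) and 2 were lower (FTH1 and GCLC; background 25.9%). With VIC-1911 alone for 7 days, 2 were higher (SRXN1 and FTL; background 26.6%) and 2 were lower (FTH1 and GCLC; background 25.8%). None of the 9 went past 2-fold with either single drug, against 7.16% of genes with olaparib and 6.89% with VIC-1911, and the median absolute log2 fold changes, 0.30 and 0.27, were near those over all genes (0.27 in both). After 2 days of VIC-1911, FTL was the 1 gene called higher (background 7.5%), FTH1 and NQO1 were the 2 called lower (background 7.19%), and none of the 9 went past 1.5-fold, against 2.16% of genes.

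**Figure D2:**
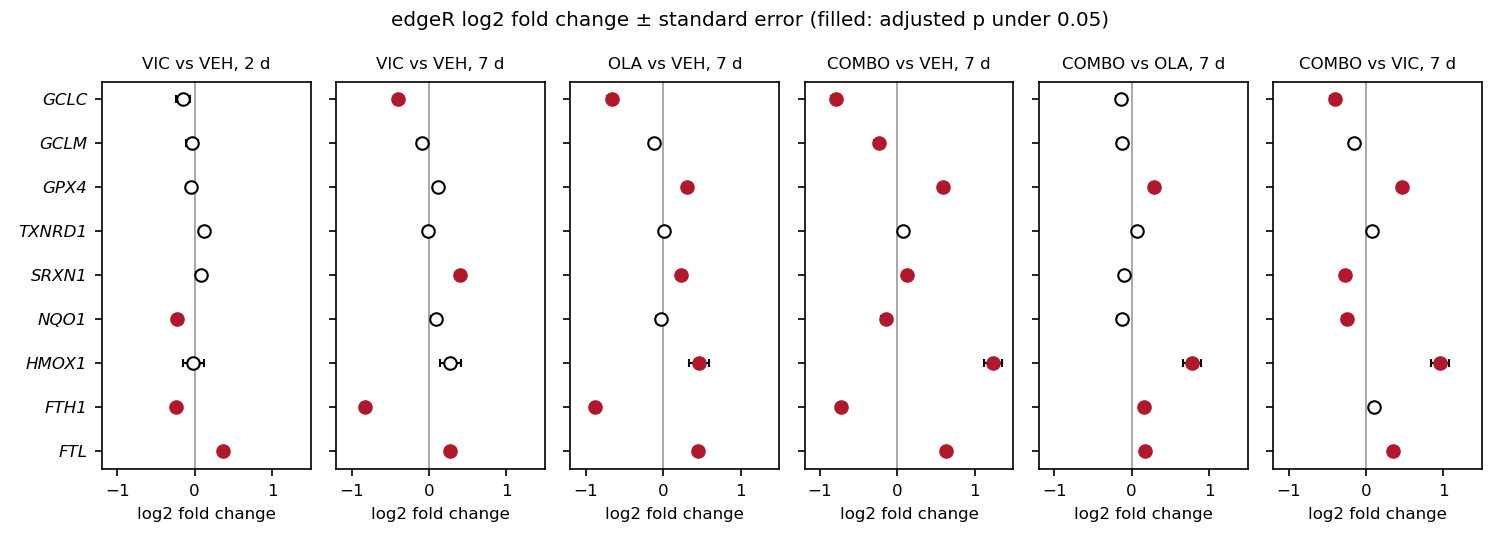
Log2 fold change from edgeR (horizontal axes) of the 9 genes in 6 comparisons, 2 d and 7 d standing for days of treatment. Circles are estimates, bars are ± 1 standard error (hidden behind the circle where short), and filled circles have an adjusted p under 0.05. GCLC and FTH1 lie left of 0 and FTL right of 0 in each of the 4 comparisons with vehicle, and HMOX1 with both drugs lies farthest right.

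GCLC (chromosome 6, 53497341 to 53616970, minus strand, GRCh38 as in all gene positions here) encodes the catalytic subunit of glutamate-cysteine ligase, and it was lower under each drug at 7 days. Vehicle libraries held 14.96, 14.48 and 14.77 FPKM, VIC-1911 libraries 11.9, 11.9 and 11.0, olaparib libraries 8.61, 9.16 and 10.1, and combination libraries 8.56, 8.18 and 8.69. All drug-treated libraries lay below all vehicle libraries, and the combination and olaparib libraries overlapped. The log2 fold change against vehicle was -0.40 with VIC-1911 (SE 0.06, edgeR adjusted p = 2.14e-06), -0.66 with olaparib (SE 0.06, edgeR adjusted p = 2.35e-10) and -0.80 with both (SE 0.06, edgeR adjusted p = 2.71e-12). The combination was lower than VIC-1911 by -0.40 (edgeR adjusted p = 4.86e-06), while against olaparib the difference was -0.13 with a 95% interval of -0.26 to -0.01 and did not pass after adjustment (edgeR adjusted p = 0.188). At 2 days the vehicle libraries, at 10.2, 8.68 and 11.1 FPKM, overlapped the VIC-1911 libraries, at 9.23, 7.52 and 9.20, and the difference of -0.15 did not pass (edgeR adjusted p = 0.287).

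GCLM (chromosome 1, 93885199 to 93909456, minus strand) encodes the modifier subunit of the same enzyme and moved less. Vehicle libraries of 7 days held 9.82, 9.05 and 9.65 FPKM, VIC-1911 libraries 9.49, 8.63 and 9.54, olaparib libraries 9.16, 8.60 and 8.97, and combination libraries 8.35, 7.22 and 8.51. Only the combination libraries lay wholly below vehicle, with a log2 fold change of -0.24 (SE 0.06, edgeR adjusted p = 0.00236). VIC-1911 (-0.09) and olaparib (-0.11) did not pass (edgeR adjusted p = 0.273 and 0.138). At 2 days GCLM held 10.6 to 12.9 FPKM in vehicle and 10.4 to 11.7 with VIC-1911, with a log2 difference of -0.03 (95% interval -0.18 to 0.12).

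The cystine transporter subunit SLC7A11, which brings in the precursor of the cysteine that these 2 subunits join to glutamate, is not one of the 9 genes and fell far more. Its FPKM was 66.5, 74.7 and 76.3 in vehicle at 7 days, 6.40 to 7.29 with VIC-1911, 4.24 to 4.55 with olaparib and 4.09 to 5.04 with both drugs, so that every drug-treated library was below every vehicle library. The log2 fold changes were -3.43, -4.05 and -4.01 (edgeR adjusted p = 1.50e-26, 6.00e-28 and 3.28e-28), and at 2 days the change was -1.05 (edgeR adjusted p = 3.00e-16), from 31.0 ± 2.36 to 14.9 ± 1.60 FPKM (SD, n = 3).

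GPX4 (chromosome 19, 1103982 to 1106791, plus strand), the glutathione-dependent lipid peroxidase, was higher with olaparib and higher still with both drugs. Vehicle libraries held 115, 102 and 115 FPKM at 7 days, VIC-1911 libraries 118, 120 and 132, olaparib libraries 139, 137 and 138, and combination libraries 176, 157 and 165. Neither olaparib nor combination libraries overlapped vehicle, and the combination lay above each single drug in every library. The log2 fold change was 0.30 with olaparib (SE 0.05, edgeR adjusted p = 1.78e-05) and 0.59 with both drugs (SE 0.05, edgeR adjusted p = 6.99e-11), a 1.51-fold higher level. The combination exceeded olaparib by 0.29 (edgeR adjusted p = 3.26e-04) and VIC-1911 by 0.47 (edgeR adjusted p = 1.57e-08). VIC-1911 alone gave 0.12, just short of the threshold (edgeR adjusted p = 0.0567), although its 3 libraries lay above the vehicle libraries. At 2 days GPX4 held 127 to 131 FPKM in vehicle and 120 to 123 with VIC-1911, and the count test gave -0.05 (95% interval -0.15 to 0.05, edgeR adjusted p = 0.600).

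TXNRD1 (chromosome 12, 104215779 to 104350307, plus strand), the cytosolic thioredoxin reductase, passed in none of the comparisons. Its libraries held 82.9 to 85.6 FPKM in vehicle at 7 days, 84.3 to 88.4 with VIC-1911, 84.9 to 88.6 with olaparib and 88.7 to 89.9 with both drugs. The log2 difference was -0.01 with VIC-1911 (95% interval -0.08 to 0.07), 0.01 with olaparib (-0.07 to 0.09) and 0.07 with both (-0.0028 to 0.15), with edgeR adjusted p = 0.908, 0.823 and 0.110. Combination libraries lay above vehicle by FPKM, and those of the single drugs overlapped vehicle. At 2 days VIC-1911 libraries held 117 to 126 FPKM and vehicle libraries 109 to 118, a log2 difference of 0.12 (SE 0.04, edgeR adjusted p = 0.0629).

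SRXN1 (chromosome 20, 646615 to 653200, minus strand), sulfiredoxin, which repairs over-oxidized peroxiredoxins, was highest in VIC-1911-treated cells at 7 days. Vehicle libraries held 29.3, 26.5 and 25.9 FPKM, VIC-1911 libraries 36.8, 36.4 and 38.7, olaparib libraries 32.6, 33.5 and 31.6, and combination libraries 30.9, 30.1 and 28.9. Both single drugs stood above vehicle in every library, whereas combination and vehicle libraries overlapped. The log2 fold change was 0.40 with VIC-1911 (SE 0.05, edgeR adjusted p = 1.27e-07) and 0.23 with olaparib (SE 0.05, edgeR adjusted p = 4.34e-04). With both drugs it was 0.13 (SE 0.05, edgeR adjusted p = 0.0346), and this call was lost without vehicle replicate 2, vehicle replicate 3, combination replicate 1 or combination replicate 2, with DESeq2, with no filter on counts and with these 2 groups fitted alone (largest adjusted p = 0.212). The combination was lower than VIC-1911 by -0.27 (edgeR adjusted p = 5.95e-05) and did not pass against olaparib (-0.10, edgeR adjusted p = 0.215). At 2 days SRXN1 held 37.7 to 39.0 FPKM in vehicle and 40.3 to 42.7 with VIC-1911, and the count test gave 0.08 (edgeR adjusted p = 0.382).

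NQO1 (chromosome 16, 69706996 to 69726668, minus strand), the quinone reductase often used as a readout of NRF2 activity, was lower with VIC-1911 at 2 days. Vehicle libraries held 62.9, 62.4 and 61.1 FPKM and VIC-1911 libraries 51.3, 52.6 and 50.4, without overlap, and the log2 fold change was -0.23 (SE 0.05, edgeR adjusted p = 0.00175). At 7 days vehicle libraries held 29.97, 27.69 and 24.66 FPKM, VIC-1911 libraries 28.8, 31.0 and 31.5, olaparib libraries 25.2, 30.6 and 26.1, and combination libraries 25.1, 24.9 and 25.2. Each drug-treated group overlapped vehicle. The difference from vehicle was 0.09 with VIC-1911 and -0.02 with olaparib, neither passing (edgeR adjusted p = 0.220 and 0.787). With both drugs it was -0.15 (edgeR adjusted p = 0.0487), a call lost in 15 of 21 alternatives, among them DESeq2 and the removal of either of vehicle replicates 1 and 2, any VIC-1911 replicate, olaparib replicate 3 or any combination replicate (largest adjusted p = 0.232). The combination was lower than VIC-1911 by -0.24, without overlap (SE 0.06, edgeR adjusted p = 0.00253).

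HMOX1 (chromosome 22, 35380361 to 35394214, plus strand), the inducible haem oxygenase that releases iron from haem, showed the largest change of the 9 genes. Combination libraries held 14.3, 11.3 and 13.7 FPKM, against 6.25, 5.16 and 5.28 in vehicle, 6.02, 5.79 and 8.73 with VIC-1911 and 6.91, 7.81 and 8.12 with olaparib. All 3 combination libraries exceeded every other 7-day library. The same libraries held 525, 272 and 432 counts with both drugs and 190, 186 and 74 in vehicle, and its standard errors were the widest of the 9 genes. The log2 fold change with both drugs was 1.24 (SE 0.12, edgeR adjusted p = 5.73e-10), 2.36-fold. It was 0.46 with olaparib (SE 0.13, edgeR adjusted p = 0.00414), also without overlap, and 0.27 with VIC-1911, which overlapped vehicle and did not pass (edgeR adjusted p = 0.0877). The approximate 95% interval of the VIC-1911 change, 0.01 to 0.54, left out 0, but the unadjusted edgeR p was 0.0507. The combination exceeded olaparib by 0.78 (SE 0.11, edgeR adjusted p = 2.37e-05) and VIC-1911 by 0.96 (SE 0.12, edgeR adjusted p = 8.69e-08). At 2 days HMOX1 held 7.68, 8.33 and 9.16 FPKM in vehicle and 8.59, 7.04 and 8.15 with VIC-1911, overlapping, with a log2 difference of -0.02 (95% interval -0.28 to 0.25).

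FTH1 (chromosome 11, 61959718 to 61967634, minus strand), the ferritin heavy chain, was lower after every treatment, while FTL (chromosome 19, 48965309 to 48966879, plus strand), the light chain, was higher after every treatment. At 7 days FTH1 held 1126, 1178 and 1238 FPKM in vehicle, 655, 687 and 718 with VIC-1911, 611, 686 and 651 with olaparib and 734, 726 and 690 with both drugs. All drug-treated libraries were below all vehicle libraries, and VIC-1911 and olaparib libraries overlapped. The log2 fold change was -0.83 with VIC-1911 (SE 0.05, edgeR adjusted p = 3.08e-15), -0.88 with olaparib (SE 0.05, edgeR adjusted p = 7.19e-16) and -0.72 with both (SE 0.05, edgeR adjusted p = 3.92e-14). The combination was thus not below the single drugs. It was higher than olaparib by 0.15 (SE 0.05, edgeR adjusted p = 0.0249), a call that was lost without olaparib replicate 1 or 3, without combination replicate 1 and with limma on FPKM (largest adjusted p = 0.145), and it differed from VIC-1911 by 0.10 (edgeR adjusted p = 0.0686). At 2 days FTH1 held 1257, 1330 and 1268 FPKM in vehicle and 1029, 1078 and 1099 with VIC-1911, without overlap, a log2 fold change of -0.24 (SE 0.04, edgeR adjusted p = 5.98e-05).

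FTL held 165, 171 and 163 FPKM in vehicle at 7 days, 199, 207 and 217 with VIC-1911, 208, 245 and 235 with olaparib and 259, 266 and 248 with both drugs. Every drug-treated library was above every vehicle library, and the combination libraries were above those of each single drug. The log2 fold change was 0.27 with VIC-1911 (SE 0.05, edgeR adjusted p = 3.95e-05), 0.46 with olaparib (SE 0.05, edgeR adjusted p = 9.76e-09) and 0.63 with both (SE 0.05, edgeR adjusted p = 8.13e-12). The combination exceeded VIC-1911 by 0.35 (edgeR adjusted p = 1.07e-06) and olaparib by 0.17 (edgeR adjusted p = 0.0213), the latter call being lost without olaparib replicate 1 or combination replicate 2 and with limma on FPKM (largest adjusted p = 0.139). At 2 days FTL held 162, 177 and 174 FPKM in vehicle and 219, 236 and 208 with VIC-1911, without overlap, a log2 fold change of 0.37 (SE 0.05, edgeR adjusted p = 5.36e-06).

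The ratio of the heavy-chain to the light-chain transcript, from FPKM within each library, followed from these opposite changes. It was 7.51 ± 0.233 in vehicle and 4.86 ± 0.382 with VIC-1911 at 2 days (SD, n = 3), and 7.11 ± 0.436 in vehicle, 3.31 ± 0.0173 with VIC-1911, 2.83 ± 0.0863 with olaparib and 2.78 ± 0.0524 with both drugs at 7 days. No drug-treated library overlapped its vehicle. Over the 6 comparisons, an exact two-sided permutation test gave p = 0.1, the smallest that 3 against 3 libraries allow, for every one except the combination against olaparib (p = 0.5), and after Benjamini-Hochberg adjustment these became 0.12 and 0.5. The summed FPKM of both chains was 1347 ± 54.8 in vehicle at 7 days, 894 ± 40.4 with VIC-1911, 879 ± 56.2 with olaparib and 975 ± 32.0 with both drugs.

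**Figure D3:**
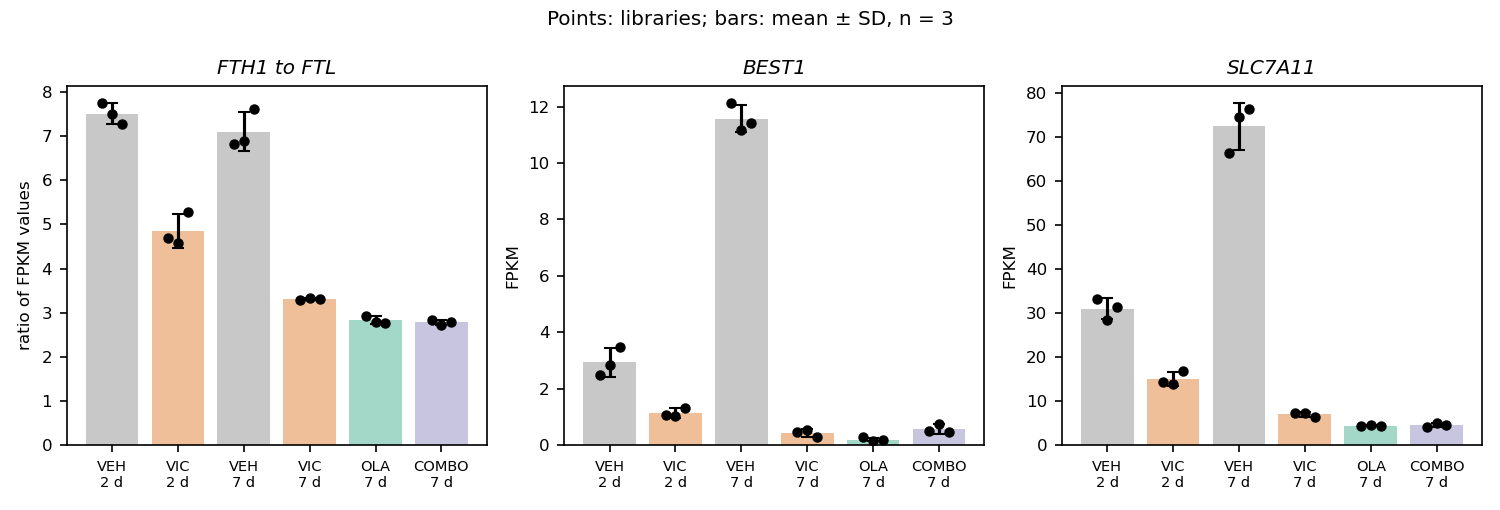
Left, ratio of FTH1 to FTL in FPKM within each library; middle and right, FPKM of BEST1, which overlaps FTH1, and of the cystine transporter gene SLC7A11. Bars are means ± SD (n = 3) and start at 0, points are libraries, and the 2-day and 7-day tables were normalized separately. The ratio lies near 7 in both vehicle groups and at 2.73 to 3.33 in all drug-treated libraries of 7 days.

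FTH1 shares its locus with BEST1, a chloride channel gene on the opposite strand that overlaps it over 5798 bases, 1267 of them exonic. Whether the counting used strand is not given in the sources used here, so reads in the overlap cannot be told apart. BEST1 held 784, 857 and 341 counts in the 7-day vehicle libraries, 19 to 29 with VIC-1911, 6 to 14 with olaparib and 31 to 39 with both drugs, and FTH1 held 26463, 32850 and 13419 counts in the same vehicle libraries. Its log2 fold changes were -4.84, -6.10 and -4.39 (edgeR adjusted p = 8.80e-22, 1.10e-22 and 8.74e-22), in the direction of FTH1. The pseudogene FTH1P3 held 9 to 58 counts per library, and FTLP10 held none at 2 days and was listed at 0 FPKM in every library. With VIC-1911, olaparib and both drugs at 7 days FTH1P3 was lower, by -1.18, -0.89 and -1.07 (edgeR adjusted p = 1.38e-04, 0.00166 and 2.15e-04). At 2 days it did not pass (-0.29, edgeR adjusted p = 0.546). SRXN1 overlaps a protein-coding gene on the same strand over 2292 exonic bases, which is not in the count tables, GCLC and NQO1 each have exonic overlap with lncRNAs that are not in those tables, and GCLM, GPX4, HMOX1 and FTL overlap no annotated gene in GENCODE v44.

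Whether the drugs acted independently on these genes was tested as the interaction at 7 days, the log2 change with both drugs minus the sum of the changes with each alone. It passed for 5 of the 9 genes, where 44% of all genes tested passed. FTH1 gave the largest value, 0.98 (SE 0.06, edgeR adjusted p = 3.01e-13), the 2 single-drug decreases not adding up in the combination. SRXN1 gave -0.51 (SE 0.07, edgeR adjusted p = 1.45e-06), its increases with each drug likewise not adding up. HMOX1 gave 0.50 (SE 0.18, edgeR adjusted p = 0.0224), its change with both drugs being more than the sum; this call was lost without vehicle replicate 1, VIC-1911 replicate 1 or VIC-1911 replicate 2 and with limma on FPKM (largest adjusted p = 0.0852). GCLC gave 0.26 (edgeR adjusted p = 0.0163), lost without VIC-1911 replicate 3 or olaparib replicate 2 and with limma on log2(FPKM + 0.1) (largest adjusted p = 0.0616). NQO1 gave -0.22 (edgeR adjusted p = 0.0496), lost in 13 of 20 alternatives, among them DESeq2 and the removal of vehicle replicate 2 or 3, VIC-1911 replicate 2 or 3, olaparib replicate 2 or any combination replicate (largest adjusted p = 0.269). FTL (-0.10), GPX4 (0.17), TXNRD1 (0.07) and GCLM (-0.04) did not pass. Each of the 2 drug differences this test compares lies within one run of library numbers. Without VIC-1911 replicate 2, or without olaparib replicate 2, 3 of the 9 genes passed.

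The combination was compared with each single drug to ask what adding the second drug did. Against olaparib, 4 of the 9 genes were higher (HMOX1, GPX4, FTL and FTH1; background 4.55%) and 0 were lower (background 6.95%). At an unadjusted p under 0.05 edgeR called 5 genes, the fifth being GCLC, and DESeq2 called 4 at an adjusted p under 0.05. With limma on FPKM, and without olaparib replicate 1, 2 of the 9 passed. Against VIC-1911, 3 were higher (HMOX1, GPX4 and FTL; background 20.7%) and 3 were lower (GCLC, SRXN1 and NQO1; background 22.2%).

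The VIC-1911 effect at 7 days differed from that at 2 days, in a fit of the vehicle and VIC-1911 counts of both time points, for 3 of the 9 genes, where 28.7% of 13811 genes tested passed. FTH1 fell further at 7 days, with a difference of -0.60 (SE 0.06, edgeR adjusted p = 1.37e-10). NQO1 gave 0.30 (SE 0.08, edgeR adjusted p = 0.00234), from a decrease at 2 days to a value that did not pass at 7 days, and SRXN1 gave 0.31 (SE 0.08, edgeR adjusted p = 0.00188). FTL, with -0.11 (95% interval -0.26 to 0.04), and HMOX1, with 0.28 (-0.12 to 0.67), did not pass. Each time point had its own vehicle libraries, and vehicle levels were not the same in both. Mean NQO1 was 62.1 FPKM in 2-day and 27.4 in 7-day vehicle, against 51.4 and 30.4 with VIC-1911. Mean SRXN1 was 38.5 and 27.2 FPKM in vehicle, against 41.6 and 37.3 with VIC-1911. The 2 time points were normalized separately, and the change in vehicle was not tested.

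The transcript of NRF2 itself, NFE2L2, was slightly lower in all 3 drug-treated groups of 7 days. Vehicle libraries held 16.4, 17.1 and 15.9 FPKM, VIC-1911 libraries 14.0 to 15.4, olaparib libraries 13.38 to 14.98 and combination libraries 13.87 to 14.99, all below vehicle. The log2 fold changes were -0.20, -0.21 and -0.20 (edgeR adjusted p = 0.00494, 0.00323 and 0.00332). KEAP1, its inhibitor, was higher by 0.15, 0.13 and 0.18 (edgeR adjusted p = 0.00900, 0.0183 and 0.00143), and BACH1 passed in none of the 3. The KEAP1 call was lost for VIC-1911 without vehicle replicate 2 (adjusted p = 0.0668) and for olaparib without vehicle replicate 2 or 3 or olaparib replicate 2 or 3 (largest adjusted p = 0.0946). At 2 days none of these 3 regulators passed. NRF2 protein and its location in the cell were not measured.

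Of the iron genes read beside ferritin, TFRC, the transferrin receptor that brings iron into the cell, was higher than in its vehicle with each treatment. It held 41.5, 42.3 and 47.7 FPKM in vehicle at 7 days, 77.8 to 81.6 with VIC-1911, 62.9 to 64.9 with olaparib and 52.9 to 53.7 with both drugs, with no overlap between any 2 groups. The log2 fold changes were 0.83, 0.52 and 0.28 (edgeR adjusted p = 4.20e-15, 1.07e-10 and 6.01e-06), and at 2 days 0.16 (edgeR adjusted p = 0.00841, and 0.0535 without VIC-1911 replicate 2). At 2 days TFRC held 81.9 to 88.1 FPKM in vehicle and 92.4 to 97.1 with VIC-1911. The 7-day vehicle thus lay below the 2-day vehicle, though the 2 time points were normalized separately and this difference was not tested. SLC40A1, which exports iron, was lower at 7 days, by -0.60, -0.97 and -1.14 (edgeR adjusted p = 0.0259, 8.61e-04 and 1.22e-04), from 18 to 76 counts per library in these groups. Its level was low, at a mean of 0.998 FPKM in vehicle, and olaparib libraries overlapped vehicle (olaparib replicate 1 at 0.819 FPKM, vehicle replicate 1 at 0.779). Its VIC-1911 call was lost without vehicle replicate 2 or 3 or VIC-1911 replicate 2, with DESeq2 and with limma on log2(FPKM + 0.1), with values from -0.77 to -0.26 over all alternatives (largest adjusted p = 0.112). NCOA4, the receptor that delivers ferritin to lysosomes, was higher with olaparib (0.15, edgeR adjusted p = 0.00500, and 0.0706 without vehicle replicate 1) and with both drugs (0.19, edgeR adjusted p = 4.51e-04).

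Around the 9 genes, 118 further genes in 7 lists were counted: NRF2 regulation, glutathione, thioredoxin and peroxiredoxin, NADPH supply, other NRF2 targets and detoxification, iron and haem, and ferroptosis. Of the 101 tested at 7 days, 38 (37.6%) were higher and 35 (34.7%) lower with VIC-1911, where 26.6% and 25.8% of all genes were. With olaparib 37 (36.6%) were higher and 40 (39.6%) lower, against 28.1% and 25.9%, and with both drugs 32 (31.7%) were higher and 41 (40.6%) lower, against 28.6% and 28%. Of the 95 tested at 2 days, 13 (13.7%) were higher and 7 (7.37%) lower, against 7.5% and 7.19%. Their median log2 fold changes at 7 days were 0.01, 0.01 and -0.03, with VIC-1911, olaparib and both drugs in that order, as in the counts per list that follow. The medians over all genes tested were -0.01, 0.01 and 0.00465. Per-list counts are to be read against the same shares of all genes, 26.6%, 28.1% and 28.6% higher and 25.8%, 25.9% and 28% lower.

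Among the 21 tested glutathione genes, 8, 6 and 6 were higher and 10, 11 and 10 lower with VIC-1911, olaparib and both drugs. CHAC1, which breaks down glutathione, fell with SLC7A11, from 45.6 ± 1.07 FPKM in vehicle to 2.05 ± 0.199 with olaparib (log2 fold change -4.53, edgeR adjusted p = 1.07e-25). GLRX, glutaredoxin, rose from 0.898 ± 0.189 to 3.68 ± 0.429 FPKM with both drugs (2.11, edgeR adjusted p = 4.30e-10), and the glutathione transferase gene GSTM3 from 12.9 ± 1.51 to 26.0 ± 1.32 (1.00, edgeR adjusted p = 1.98e-13). Of the 13 thioredoxin and peroxiredoxin genes, 7, 8 and 7 were higher and 4, 5 and 4 lower, and the median log2 fold changes of this list were 0.36, 0.21 and 0.38. PRDX6 (0.87, edgeR adjusted p = 1.21e-15) and TXN (0.82, edgeR adjusted p = 2.37e-14) rose with both drugs, while TXNIP, an inhibitor of thioredoxin, fell with olaparib (-0.86, edgeR adjusted p = 4.76e-13) and PRDX5 fell with VIC-1911 (-0.84, edgeR adjusted p = 1.62e-13).

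Of the 10 NADPH genes, 4, 3 and 3 were higher and 4, 5 and 6 lower, with NNT (-0.81, edgeR adjusted p = 1.57e-09) and ME1 (-0.78, edgeR adjusted p = 1.61e-14) falling most with both drugs. Of the 22 iron and haem genes, 7, 9 and 8 were higher and 5, 8 and 10 lower. The metal importer SLC39A14 fell with both drugs (-0.998, edgeR adjusted p = 9.53e-16), and the mitochondrial iron importer SLC25A37 rose (0.70, edgeR adjusted p = 1.51e-13). Of the 11 ferroptosis genes, 4, 6 and 4 were higher and 3, 2 and 2 lower. ACSL4, which activates polyunsaturated fatty acids for membrane lipids, rose from 0.234 ± 0.0452 to 1.08 ± 0.0415 FPKM with both drugs (2.24, edgeR adjusted p = 3.38e-11), and SAT1, a polyamine acetyltransferase, rose by 0.95 (edgeR adjusted p = 1.65e-13). Of the 11 NRF2 regulators, 4, 2 and 2 were higher and 4, 4 and 5 lower, NFE2L1 falling with VIC-1911 (-0.97, edgeR adjusted p = 4.20e-17). The total passing in that list went from 8 to 5 with VIC-1911 without vehicle replicate 2, and from 7 to 4 with both drugs without vehicle replicate 1 or combination replicate 3. The list of other NRF2 targets and detoxification genes held 21, of which 13 were tested. Of these 13, 4, 3 and 2 were higher and 5, 5 and 4 lower, and not all of them are NRF2 targets. The carbonyl reductase gene CBR1 was higher (0.60, edgeR adjusted p = 4.04e-07) and the epoxide hydrolase gene EPHX1 lower (-0.68, edgeR adjusted p = 1.40e-12) with VIC-1911.

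**Figure D4:**
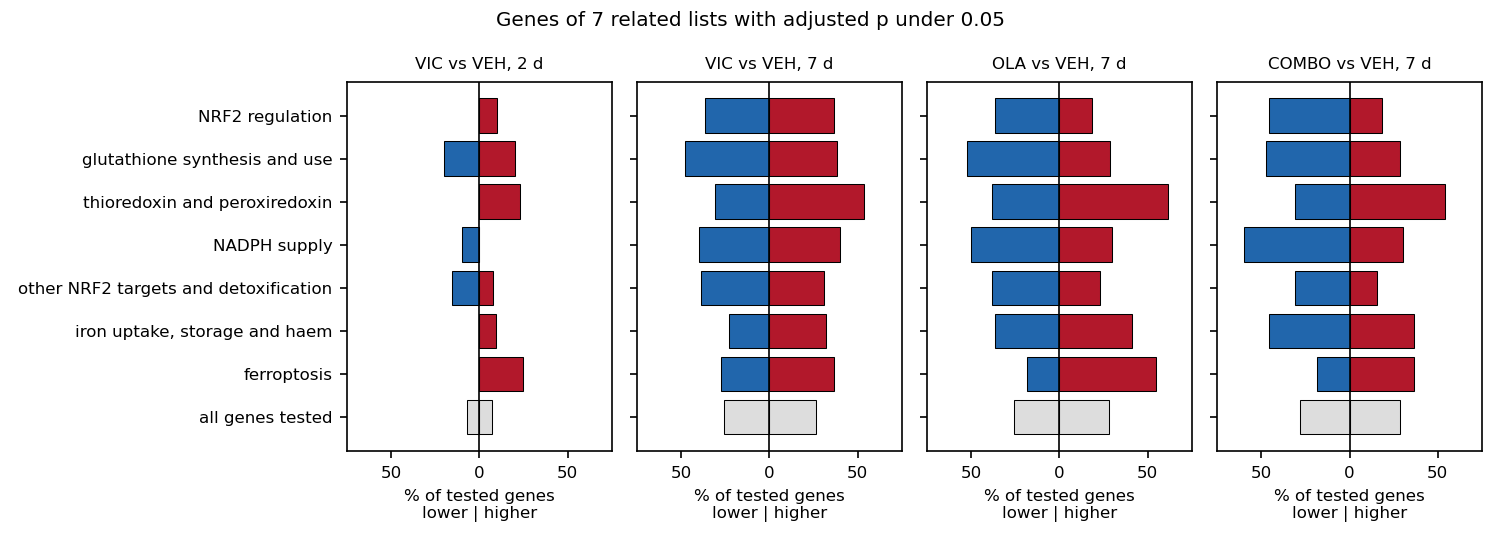
Share of the tested genes of each list (rows) with an adjusted p under 0.05, drawn to the right for higher and to the left for lower genes, as a percent of those tested, in the 4 comparisons with vehicle. Grey bars give the same shares over all genes tested, and in every list at 7 days some genes were higher and others lower.

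For the 3 genes that changed most, HMOX1, FTH1 and GCLC, the genes of most similar pattern were listed by Pearson correlation of log2 CPM (counts scaled to library size) across the 12 libraries of 7 days, among 11660 genes. For HMOX1 these were EXOC3-AS1 (r = 0.976), TALDO1 (r = 0.963) and DPP7 (r = 0.957). For FTH1 they included the seryl-tRNA synthetase gene SARS (r = 0.991) and RBCK1 (r = 0.991), and for GCLC they were CAMK2N1 (r = 0.992), GPR108 (r = 0.985) and RGS3 (r = 0.983). The libraries share their treatment groups and depth, so these values describe likeness over 4 groups only. TALDO1 is the 1 gene of these that also stands in the lists above, under NADPH supply, and its mean FPKM was 173 in vehicle, 187 with VIC-1911, 186 with olaparib and 203 with both drugs.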

How the data were processed

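The 18 RNA-Seq libraries of C4-2B cells were grouped by their labels. The authors trimmed reads with Trimmomatic, mapped them to GRCh38 (hg38) with STAR (2.6.0 in the submitters' processing notes) and deposited raw counts per gene, 1 table per time point. The authors also deposited FPKM values from an in-house script, 1 table per time point, and these were used for levels. Strand setting and the handling of shared reads are not given in the sources used here. At 2 days, the reads behind the FPKM of the 9 genes, relative to their counts, were 0.959 (GPX4) to 1.04 (GCLM) times those of the median gene. Counts were tested with edgeR 4.0.16 in R 4.3.3 (TMM, glmQLFit, glmQLFTest), keeping genes with at least 10 counts in 3 libraries, in 1 fit per time point and 1 fit of both for the time effect. Fold limits were 1.5 at 2 days and 2 at 7 days. The biological coefficient of variation was 3.44% at 2 days and 4.43% at 7 days, so small changes could pass. Intervals are 95%. The study's own tool, DESeq2 (1.42.0), limma 3.58.1 on log2(FPKM + 0.1) and log2(FPKM + 1), other scalings and filters, a replicate block and the removal of each library were alternatives. The edgeR steps were tested on simulated data. The genes and lists were chosen with earlier results of these data known. Named genes beyond the 9 were fixed regulators and iron genes, the 2 genes per list and direction with the largest passing changes and no overlap, of which examples are given, genes sharing reads with ferritin, and the 3 nearest in pattern to the 3 members that changed most, of which 1 similar gene is not reported here.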

Additional observations from a re-analysis of the deposited data

Results flagged for a closer look

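For 5 of the 9 genes the response to VIC-1911 differed with and without olaparib, by the interaction test itself in edgeR, which 44% of all genes tested passed. These were FTH1 (0.98 on the log2 scale), SRXN1 (-0.51), HMOX1 (0.50), GCLC (0.26) and NQO1 (-0.22), and the calls of HMOX1, GCLC and NQO1 were lost without some single libraries. In FTH1, VIC-1911 libraries held 655 to 718 FPKM against 1126 to 1238 in vehicle, but combination libraries held 690 to 734 against 611 to 686 with olaparib alone. For 3 genes the VIC-1911 effect differed between 7 and 2 days, by the test of that difference in edgeR, which 28.7% of all genes tested passed. These were FTH1 (-0.60), SRXN1 (0.31) and NQO1 (0.30).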

How the results depend on the processing

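Of the 39 member results called by edgeR, 32 kept their call in every alternative run, 7 lost it in some and 0 changed sign; the 7 and the libraries concerned stand beside their values in the report. The number of members passing for the combination against olaparib, 4, became 2 with limma on either log2 FPKM scale and ranged from 2 to 4 without single libraries, the lowest being without olaparib replicate 1. The number passing the interaction, 5, became 2 with limma on log2(FPKM + 0.1), 3 with limma on log2(FPKM + 1) and 3 to 5 without single libraries. The other 6 counts of members stayed within 1.5 times. Deviations of same-numbered libraries correlated at r from -0.0029 to 0.0438 at 2 days and -0.0355 to 0.111 at 7 days. Differently numbered libraries gave -0.0318 to 0.0284 and -0.0833 to 0.0982. With 3 libraries per group this cannot settle whether equal numbers mark pairs, and the main fits used no pairing. With a replicate block, 4 members passed at 2 days, 5 with VIC-1911, 6 with olaparib and 8 with both drugs at 7 days, 4 against olaparib, 8 against VIC-1911, 6 for the interaction and 3 for the time effect.

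Signs changed only in differences that did not pass. TXNRD1 with VIC-1911 at 7 days was 0.018 without scaling, 0.0057 without a filter on counts, 0.040 with either limma scale and -0.026 to 0.013 without single libraries. TXNRD1 with olaparib was -0.0025 with the FPKM filter, -0.00085 with these groups alone and -0.014 to 0.030 without single libraries. NQO1 with olaparib was 0.022 without scaling and -0.115 to 0.026 without single libraries. Without single libraries GCLM was -0.089 to 0.049 and HMOX1 -0.076 to 0.066 at 2 days, and the GCLM interaction -0.081 to 0.028, and the GCLM time effect was 0.033 and 0.032 with limma. Of 65 called results of related genes, 55 kept their call in every alternative run and 0 changed sign. The depth of the 2-day libraries, at most 7184420 counts, gave HMOX1 51 to 124 counts, and its 2-day interval of -0.28 to 0.25 does not exclude changes within that range.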

Other observations

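After 2 days of VIC-1911 the glutathione-degrading enzyme gene CHAC1 was lower by -1.31 (SE 0.13, edgeR adjusted p = 6.61e-10) and held 7.66 ± 1.44 FPKM with VIC-1911 against 18.5 ± 2.34 in vehicle (SD, n = 3). ABCC4, an organic anion exporter, was higher by 0.39 (edgeR adjusted p = 1.38e-07), SQSTM1, an autophagy receptor that binds KEAP1, by 0.19 (edgeR adjusted p = 0.00262), and the haem transporter gene SLC48A1 was lower by -0.56 (edgeR adjusted p = 4.33e-04). The peroxiredoxin genes PRDX6 and PRDX1 were higher by 0.23 and 0.20 (edgeR adjusted p = 6.11e-04 and 0.00295), at 199 ± 7.92 and 405 ± 16.9 FPKM with VIC-1911.

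In the 2-day tables FTH1P3 was listed at 0 FPKM in all 3 vehicle libraries, which held 9, 21 and 19 counts of it, while the 7-day tables gave it 2.50 to 3.01 FPKM in vehicle from 21 to 58 counts.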
